A study of Mus musculus with 16 samples.

Results

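The guide strands of 10 microRNAs from the miR-17/miR-92 cluster and its paralogues, miR-106a-363 and miR-106b-25, were followed in mouse hearts after exposure to an aggressor mouse. A probe was a member where a name in its annotation, split at the slash, was exactly mmu-miR-17, mmu-miR-18a, mmu-miR-19a, mmu-miR-19b, mmu-miR-20a, mmu-miR-20b, mmu-miR-92a, mmu-miR-93, mmu-miR-106b or mmu-miR-25. Each name matched 1 probe, giving 10 of the 1023 mouse microRNA probes and of 2435 named probes on the array. No member passed the test in any of the 6 comparisons between groups. The differences nearest to the threshold were miR-93, at lower signal in T3R1 than in T1R1 hearts (-0.24 ± 0.07 on the log2 scale, SE, limma adjusted p = 0.108), and miR-17, at lower signal in T3R1 than in T1R1 (-0.32 ± 0.10, adjusted p = 0.156) and at higher signal in T1R1 than in control (0.34 ± 0.10, adjusted p = 0.205).

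Total RNA from the hearts of 16 individual C57BL/6 mice was labelled with Hy3 or Hy5 dye and hybridised in pairs to 8 arrays of locked nucleic acid probes read in both colours, 4 mice and 2 arrays per group, so that every array held 2 mice of the same group. Exposed mice sat in a wire mesh box in an aggressor's cage for 6 h a day, with short bouts of direct attack, for 1 day (T1R1), 2 days (T2R1) or 3 days (T3R1), with 1 day of rest after it in all exposed groups. Controls were boxed likewise but with no aggressor in their large cage, so mice of all 4 groups were confined. The number of days for which controls were boxed is not given, and all controls share 1 code. Length of confinement may therefore differ between control and exposed groups. Controls boxed for 1 common length of time cannot match exposures of 1, 2 and 3 days alike. The protocol text, which also serves a companion study, names 5 or 10 days. The labels give neither age nor sex.

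The 3 clusters are polycistronic: several precursor hairpins lie on 1 primary transcript and are cut out of it one by one. Their products fall into 4 seed families, the seed being the stretch near the 5′ end that pairs with target messenger RNAs, so that members of a family share many predicted targets while members of a cluster share a transcript. The miR-17/miR-92 cluster is known as a driver of cell proliferation that represses Cdkn1a and Bcl2l11, and its loss in mice leads to heart septal defects and small lungs. In the mouse heart, raised miR-17/miR-92 has been linked to cardiomyocyte proliferation, and in endothelium miR-92a is known to restrain vessel growth.

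The mature sequences below, from RefSeq, are shown because the seeds define the families by which the values are ordered. Capitals mark the seed, bases 2 to 8 from the 5′ end. All 10 names were matched, as the current 5p strands of miR-17, miR-18a, miR-20a, miR-20b, miR-93 and miR-106b and the 3p strands of miR-19a, miR-19b, miR-92a and miR-25.
miR-17: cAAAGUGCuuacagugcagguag
miR-20a: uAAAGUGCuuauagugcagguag
miR-20b: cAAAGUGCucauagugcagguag
miR-93: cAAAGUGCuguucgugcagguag
miR-106b: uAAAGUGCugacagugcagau
miR-18a: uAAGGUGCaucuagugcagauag
miR-19a: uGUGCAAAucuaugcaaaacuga
miR-19b: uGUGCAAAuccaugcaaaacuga
miR-92a: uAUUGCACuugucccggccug
miR-25: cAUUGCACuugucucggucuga

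Members of the miR-17 family differ outside the seed. Counting from 1 at the 5′ end, miR-17 and miR-20a differ at 2 of 23 positions (C1U and C12U), and miR-17 and miR-20b also at 2 (U10C and C12U). The 2 miR-19 guides differ only by U11C. How well the probes separate guides this close was not analysed here, and the values of miR-19a and miR-19b, and those of the miR-17 family, may share signal.

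The miR-17/miR-92 cluster holds 6 hairpins in 836 bases at chr14:115043671-115044506 on the plus strand of GRCm38.p6. The miR-106a-363 cluster holds 6 hairpins in 875 bases at chrX:52741693-52742567 on the minus strand. The miR-106b-25 cluster holds 3 hairpins in 498 bases at chr5:138165321-138165818 on the minus strand, within the gene Mcm7, which encodes a subunit of the replicative helicase. The guides of miR-19b and miR-92a are encoded in both miR-17/miR-92 and miR-106a-363, so that a probe for either cannot tell the 2 clusters apart, and only miR-20b among the members comes from miR-106a-363 alone.

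**Figure D1:**
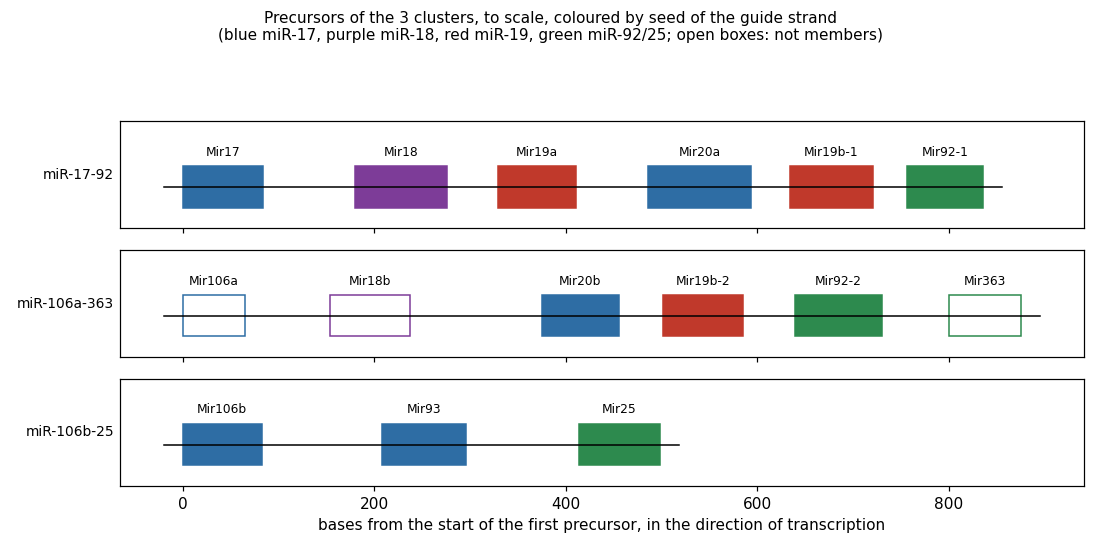
Precursor hairpins of the 3 clusters drawn to scale, with the distance in bases from the start of the first precursor on the x axis and colours for the seed family of the guide. Filled boxes are precursors of members, and each cluster begins with a miR-17 family guide and ends with a miR-92 family guide.

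Many members gave weak signal. The brightness of the probes for human virus microRNAs served as background, with their 95th percentile lying between 6.62 and 6.95 normalized log2 intensity in the 16 samples. The guides of 3 members, miR-106b, miR-19a and miR-19b, were above that level in all 16 samples, 4 in some samples (miR-17 in 11, miR-20a in 7, miR-93 in 6 and miR-25 in 3), and 3, miR-20b, miR-18a and miR-92a, in 0 samples. For those 3, a small difference bears on signal that could not be told from background. No member spot of 640 was saturated. A member was printed as 4 spots, and the median SD between spots of 1 probe in 1 sample was 0.05 to 0.13 log2 over the members.

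The labelled tissue was checked by its markers. Of the 5 cardiomyocyte microRNAs found on the array, 4 were above the virus-probe level in all samples, and mmu-miR-133a stood at 10.33 ± 0.18 (SD, n = 4) log2 in control hearts. The liver marker mmu-miR-122 lay between 6.20 and 6.62, and 2 of 3 neuron markers were above background in 0 samples. Only in T1R1 replicate 4 was miR-122 above the virus-probe level, and narrowly (6.62205 against 6.62152). The third neuron marker, miR-128, stood at 7.62 in control replicate 1, where that level was 6.86, and at 5.95 in control replicate 2. In whole hearts, fewer cells of a type and less RNA per cell cannot be told apart. Between 165 and 242 mouse probes per sample were above the virus-probe level. By their slide numbers the arrays form 2 sets, and the printed orientation spots were brighter in the second (24784 ± 2125, SD, n = 4 arrays) than in the first (15723 ± 263, n = 4). Control and T3R1 arrays are of the first set and T1R1 and T2R1 arrays of the second, so slide set and group cannot be told apart wherever either of the shorter exposures is set against control or T3R1. The comparisons of T3R1 with control and of T2R1 with T1R1 lie within a set. The number of arrays limits the precision throughout.

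**Figure D2:**
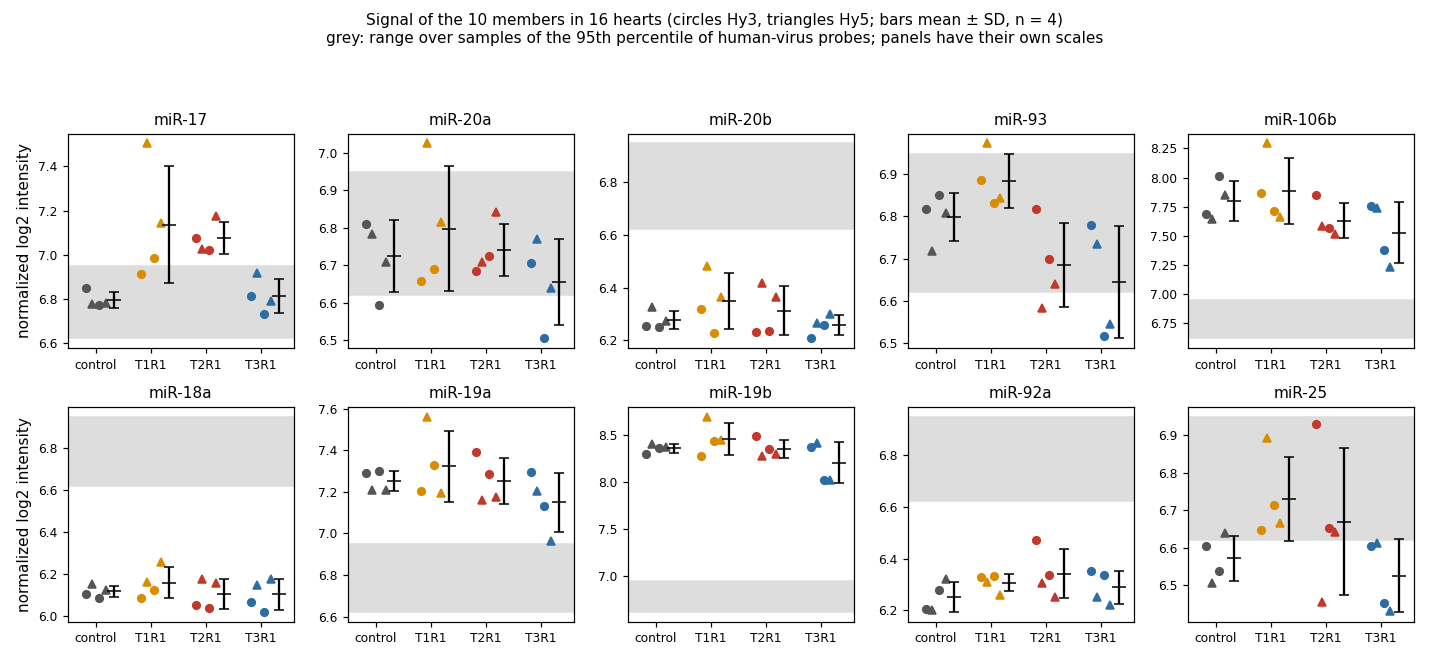
Normalized log2 intensity of the 10 members in each of 16 hearts, by group, with mean ± SD (n = 4) beside the points and the virus-probe level as a grey band. For miR-17 all T1R1 and T2R1 hearts lie above all control hearts, while miR-18a, miR-20b and miR-92a lie below the band in every heart.

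Within the miR-17 seed family, mmu-miR-17 itself, the founding member of the cluster, set some groups apart without overlap. Its log2 intensity in replicates 1 to 4 was 6.85, 6.78, 6.77 and 6.78 in control, 6.91, 7.50, 6.98 and 7.14 in T1R1, 7.08, 7.02, 7.02 and 7.18 in T2R1, and 6.81, 6.92, 6.73 and 6.79 in T3R1. All 8 hearts after 1 or 2 days of exposure were thus above all 4 controls, whereas the T3R1 hearts overlapped them. By mean the order was T1R1 (7.14 ± 0.26, SD, n = 4), T2R1 (7.07 ± 0.07), T3R1 (6.81 ± 0.08) and control (6.80 ± 0.04). T1R1 overlapped T2R1, and T3R1 overlapped control. T2R1 did not overlap T3R1.

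For mmu-miR-20a, its neighbour in the cluster with the same seed, control hearts gave 6.81, 6.78, 6.59 and 6.71, T1R1 6.66, 7.02, 6.69 and 6.82, T2R1 6.68, 6.71, 6.72 and 6.84, and T3R1 6.71, 6.77, 6.51 and 6.64. All 4 groups overlapped, and their means of 6.66 to 6.80 lay within 1 SD of the T1R1 group. For mmu-miR-20b, the miR-17 family guide of miR-106a-363, control gave 6.25, 6.33, 6.25 and 6.27, T1R1 6.32, 6.48, 6.23 and 6.37, T2R1 6.23, 6.42, 6.24 and 6.36, and T3R1 6.21, 6.27, 6.26 and 6.30. These values were all under the virus-probe level and overlapped between all groups.

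The miR-17 family guides of miR-106b-25 showed another order. For mmu-miR-93, control hearts gave 6.82, 6.72, 6.85 and 6.81, T1R1 6.89, 6.97, 6.83 and 6.84, T2R1 6.82, 6.58, 6.70 and 6.64, and T3R1 6.78, 6.74, 6.52 and 6.54. All 4 T1R1 hearts were above every T2R1 and T3R1 heart, and control overlapped each other group. By mean the order was T1R1 (6.88 ± 0.06, SD, n = 4), control (6.80 ± 0.06), T2R1 (6.69 ± 0.10) and T3R1 (6.64 ± 0.13). For mmu-miR-106b, whose signal was above background in every sample, control gave 7.69, 7.64, 8.02 and 7.85, T1R1 7.86, 8.29, 7.71 and 7.66, T2R1 7.85, 7.58, 7.57 and 7.52, and T3R1 7.76, 7.74, 7.38 and 7.24. The means ran in the same order, from 7.88 ± 0.29 in T1R1 and 7.80 ± 0.17 in control to 7.63 ± 0.15 in T2R1 and 7.53 ± 0.26 in T3R1, and every neighbouring pair overlapped.

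The lone miR-18 family member, mmu-miR-18a, stayed near the floor of the array. Control hearts gave 6.10, 6.15, 6.09 and 6.12, T1R1 6.09, 6.16, 6.12 and 6.26, T2R1 6.05, 6.18, 6.04 and 6.15, and T3R1 6.07, 6.15, 6.02 and 6.18. Group means ran from 6.10 to 6.16, and all groups overlapped.

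The miR-19 guides are known as the main oncogenic members of the cluster in mouse B cell lymphoma models. For mmu-miR-19a, control hearts gave 7.29, 7.21, 7.30 and 7.21, T1R1 7.20, 7.56, 7.33 and 7.19, T2R1 7.39, 7.16, 7.29 and 7.17, and T3R1 7.30, 7.20, 7.13 and 6.96. For mmu-miR-19b, control gave 8.30, 8.41, 8.36 and 8.38, T1R1 8.28, 8.69, 8.44 and 8.45, T2R1 8.49, 8.28, 8.36 and 8.30, and T3R1 8.37, 8.42, 8.03 and 8.02. In both, the highest heart was T1R1 replicate 2 and the 2 lowest were T3R1 replicates 3 and 4. The order by mean for miR-19b was T1R1 (8.46 ± 0.17, SD, n = 4), control (8.36 ± 0.05), T2R1 (8.36 ± 0.10) and T3R1 (8.21 ± 0.22), with overlap between all neighbours.

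The miR-92 family closes each of the clusters. For mmu-miR-92a, control hearts gave 6.20, 6.20, 6.28 and 6.32, T1R1 6.33, 6.31, 6.33 and 6.26, T2R1 6.47, 6.30, 6.34 and 6.25, and T3R1 6.35, 6.25, 6.34 and 6.22. All were under the virus-probe level and the groups overlapped. For mmu-miR-25, the last hairpin of miR-106b-25, control gave 6.60, 6.51, 6.54 and 6.64, T1R1 6.65, 6.89, 6.71 and 6.66, T2R1 6.93, 6.45, 6.65 and 6.64, and T3R1 6.60, 6.61, 6.45 and 6.43. T1R1 hearts were all above the control and T3R1 hearts, by 0.0084 log2 between the nearest control and T1R1 samples, and T2R1 spanned both.

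The comparison of 3 days of exposure with control, the longest exposure and within 1 slide set, gave small differences with 0 members called by limma at an adjusted p under 0.05 and 1 at an unadjusted p under 0.05. Over all 1022 mouse probes tested, 0.0% were called and 7.14% had an unadjusted p under 0.05. The 1 was miR-93, at -0.15 ± 0.07 (95% interval -0.30 to -0.01, adjusted p = 0.643), lower than the control mean in 4 of 4 hearts. It is among the mouse probes above the virus-probe level in at least 4 samples. Of those tested, 18.8% had an unadjusted p under 0.05 and 40.8% were negative. For miR-106b the difference was -0.27 ± 0.16 (-0.61 to 0.07, adjusted p = 0.855), for miR-19b -0.15 ± 0.11 and for miR-17 0.02 ± 0.10. Of the 10 members 8 were negative and 2 positive, with a median of -0.06 against 0.00 over all probes, of which 48.5% were negative. With arrays scaled by their medians 7 were positive (median 0.03), and without the array of T3R1 replicates 3 and 4 the split was 5 and 5 (median 0.01).

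Between 1 and 2 days of exposure, again within a slide set, 0 members were called and 1 had an unadjusted p under 0.05, against 0.0% and 3.52% of all probes. The difference of miR-93, lower after 2 days, was -0.20 ± 0.07 (95% interval -0.35 to -0.05, adjusted p = 0.999), with no overlap between the groups. Groups that did not overlap in this direction made up 0.978% of all probes. Of the 224 probes above the virus-probe level in at least 4 samples, miR-93 among them, 6 did not overlap in this direction. Of those tested, 6.73% had an unadjusted p under 0.05 and 63.2% were negative, with a median of -0.03. The 6 members of that kind had a median of -0.09. miR-106b differed by -0.25 ± 0.16 and miR-17 by -0.06 ± 0.10. Of the members 9 were negative, with a median of -0.06 against -0.01 over all probes (55.2% negative), but without T1R1 replicate 2 the split was 5 and 5 and the median -0.00.

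The comparison of 1 day of exposure with control crosses the slide sets. By limma 0 members were called and 1 had an unadjusted p under 0.05, against 0.881% and 8.62% of all 1021 probes tested. miR-17 was higher in T1R1 by 0.34 ± 0.10 (95% interval 0.12 to 0.57, adjusted p = 0.205), in 4 of 4 hearts. The guide was above the virus-probe level in 4 T1R1 hearts but in only 2 of the 4 controls, and the constant of 50 added before taking logs shrinks differences this near the background (0.54 with that constant at 0), so no fold is given. Leaving out 1 heart at a time gave 0.22, without T1R1 replicate 2, to 0.43. miR-17 and miR-25 (0.16 ± 0.10, adjusted p = 0.732) did not overlap control, as was the case for 3.53% of all probes in this direction. Of the 224 mouse probes above the virus-probe level in at least 4 samples, 20 did not overlap in this direction. An unadjusted p under 0.05 was found for 21.6% of those tested. miR-17 is among the 224 and miR-25 is not. The other 8 members differed by 0.04 to 0.10. All 10 were positive, against 57.0% of all probes, with a median of 0.08 against 0.01. Most probes of the array lie near its floor, and among the mouse probes above the virus-probe level in at least 4 samples 65.3% were positive, with a median of 0.05, where the 6 members of that kind had 0.09. Without T1R1 replicate 2, 8 were positive (median 0.05), and miR-106b and miR-19a stood at -0.06 and -0.04. With no step between arrays 9 were negative, but the median of all probes then moved to -0.59, and 9 members lay above it.

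The comparison of 2 days with control, also across the slide sets, separated miR-17 alone. It was higher in T2R1 by 0.28 ± 0.10 (95% interval 0.06 to 0.50, adjusted p = 0.421), with no overlap and with the same limit of 2 control hearts above the virus-probe level, and leaving out 1 heart at a time gave 0.24 to 0.32. Probes that did not overlap in this direction made up 3.23% of all, 1.08% were called by limma and 8.32% had an unadjusted p under 0.05. Of the 224 probes above the virus-probe level in at least 4 samples, miR-17 among them, 16 did not overlap in this direction. An unadjusted p under 0.05 was found for 18.4% of those tested. For the guides of miR-106b-25 the values were -0.17 ± 0.16 for miR-106b, -0.11 ± 0.07 for miR-93 and 0.10 ± 0.10 for miR-25, the last of which was -0.0019 without T2R1 replicate 1. For miR-92a the value was 0.09 ± 0.05 and for the other 5 members between -0.01 and 0.04. In all 6 members were positive, against 52.7% of all probes, and 4 negative, with a median of 0.01, 0 called and 1 at an unadjusted p under 0.05. This split had no stable direction. With arrays scaled by their medians 9 were positive (median 0.22), and with no step between arrays 9 were negative, though 9 lay above the median of all probes, then at -0.62. Without T2R1 replicate 1, or without control replicate 4, 4 were positive and 6 negative (median -0.00 in both). The T1R1, T2R1 and T3R1 comparisons share the 4 control hearts.

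**Figure D3:**
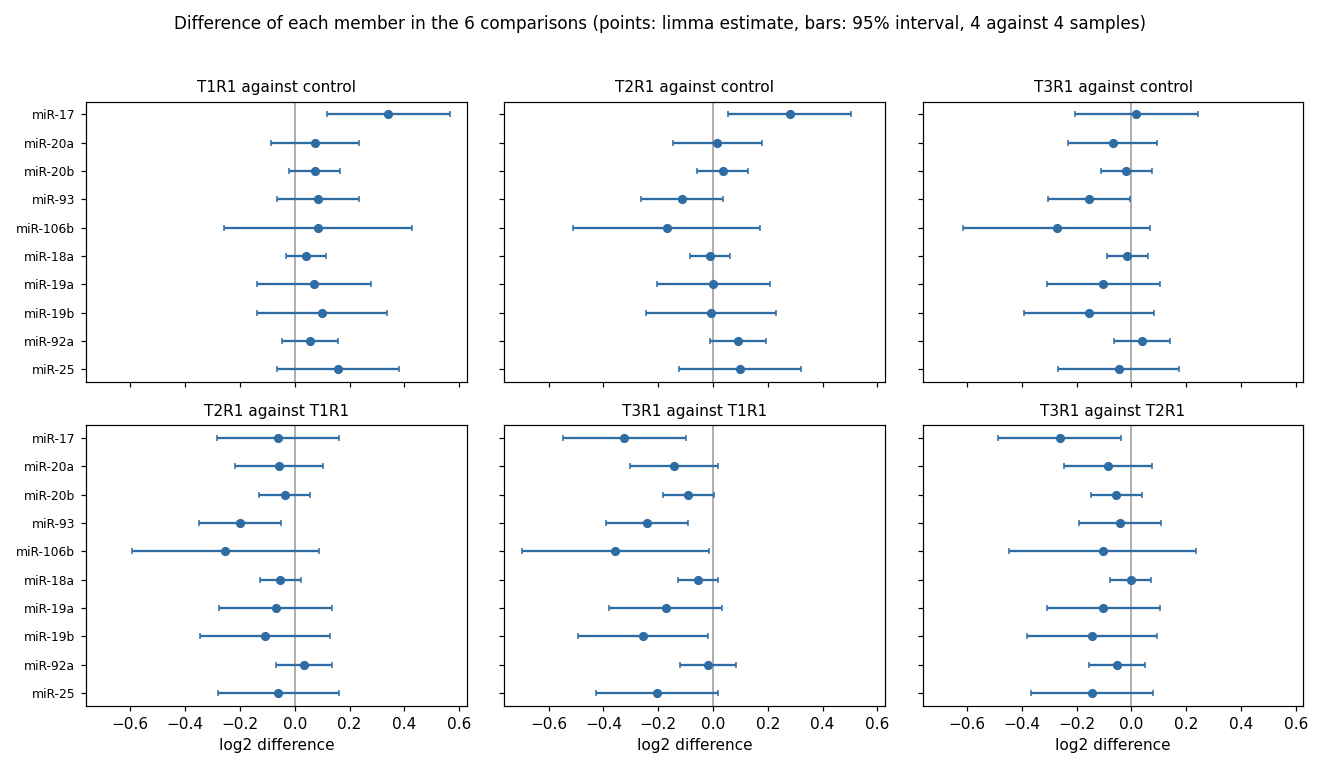
Log2 difference of each member (x axis) in the 6 comparisons, as the limma estimate with its 95% interval, 4 hearts against 4. Most intervals include 0, miR-17 lies to the right of 0 in T1R1 and T2R1 against control, and all 10 points lie left of 0 in T3R1 against T1R1.

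The comparison of 3 days with 1 day, which also crosses the slide sets, gave the widest differences. All 10 members were lower in T3R1, against 57.7% of all probes, with a median of -0.19 against -0.01. Of these 0 were called and 4 had an unadjusted p under 0.05, namely miR-93 (-0.24 ± 0.07, 95% interval -0.39 to -0.09, adjusted p = 0.108), miR-17 (-0.32 ± 0.10, -0.55 to -0.10, adjusted p = 0.156), miR-19b (-0.25 ± 0.11, -0.49 to -0.02, adjusted p = 0.323) and miR-106b (-0.36 ± 0.16, -0.70 to -0.02, adjusted p = 0.338). Over all probes 2.15% were called and 13.9% had an unadjusted p under 0.05. All 4 are among the members above the virus-probe level in at least 4 samples, and of all mouse probes of that kind 8.97% were called and 35.4% had an unadjusted p under 0.05. miR-93 and miR-25 (-0.20 ± 0.10) did not overlap, as was the case for 3.72% of all probes in this direction. Of the 224 probes above the virus-probe level in at least 4 samples, 19 did not overlap in this direction. miR-93 is among the 224 and miR-25 is not. All members tested were negative under each of the 29 other settings, samples left out included. Not all of these settings bear on the sign. Leaving out a control or T2R1 heart, or changing only the array block, the replicate block, the probe filter or the groups fitted, cannot move these differences. The median moved to -0.10 without T1R1 replicate 2 and to -0.09 without the array of T3R1 replicates 3 and 4. Without T1R1 replicate 1 miR-17 passed the threshold (-0.41, adjusted p = 0.0426).

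The comparison of 3 days with 2 days, across the slide sets, gave 10 of 10 lower in T3R1 with a median of -0.09, against 55.5% of all probes and -0.01. The difference of miR-17 was -0.26 ± 0.10 (95% interval -0.49 to -0.04, adjusted p = 0.402), with no overlap, as was the case for 2.93% of all probes in this direction. By limma 0 members were called and miR-17 alone had an unadjusted p under 0.05, against 1.08% and 9.58% of all probes. Of the 224 probes above the virus-probe level in at least 4 samples, 15 did not overlap in this direction. An unadjusted p under 0.05 was found for 24.6% of the 224. Without the array of T3R1 replicates 3 and 4 the split was 4 positive and 6 negative and the median -0.00.

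By cluster, the median difference between T3R1 and T1R1 was -0.24 over the 3 guides of miR-106b-25, -0.16 over the 6 of miR-17/miR-92 and -0.09 over the 3 of miR-106a-363, with miR-19b and miR-92a counted in both of the latter. Without T1R1 replicate 2 these medians were -0.20, -0.07 and -0.07, and without the array of T3R1 replicates 3 and 4 they were -0.13, -0.06 and -0.07. The last 2 clusters changed places with the constant of 50 set to 0 (-0.46, -0.25 and -0.30). They also did so in the deposited values (-0.55, -0.29 and -0.30). No cluster or seed family held a called member. By seed, the medians between T3R1 and T1R1 were -0.24 for the 5 miR-17 family guides, -0.21 for the 2 miR-19 guides and -0.11 for the 2 miR-92 family guides, with -0.05 for miR-18a alone. Without T1R1 replicate 2 they were -0.20, -0.12, -0.07 and -0.07, and without the array of T3R1 replicates 3 and 4 -0.13, -0.07, -0.06 and -0.05. With the signals processed by the extraction software they were -0.50, -0.28, -0.32 and -0.39. With arrays scaled by their medians the miR-19 guides stood at -0.48 and the miR-17 family at -0.34. The order of the seed families thus depended on the processing. The guides under the virus-probe level in all samples had the smallest differences between T3R1 and T1R1 (miR-20b at -0.09, miR-18a at -0.05 and miR-92a at -0.02), and the constant of 50 added before taking logs shrinks differences of dim probes. With that constant at 0, the member median between T3R1 and T1R1 was -0.30 and miR-17 in T1R1 against control 0.54, with 0 called in either comparison.

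A few hearts held much of the spread. T1R1 replicate 2 was the highest of the 4 T1R1 hearts for 8 of 10 members and the highest of all 16 for 7. T3R1 replicate 3 or 4, which share an array, was the lowest of all 16 for 8. On that array miR-106b averaged 7.31 against 7.75 on the other T3R1 array, miR-19b 8.02 against 8.40 and miR-93 6.53 against 6.76. Of the members 9 were lower on it, with a median of -0.17 against -0.00 over all probes. Among the mouse probes above the virus-probe level in at least 4 samples the median was -0.05. Such a difference was not particular to T3R1. In T1R1, too, 9 members were lower on the array of replicates 3 and 4 than on the other (median -0.09). The same held for 8 members in T2R1 (median -0.04) and 4 in control (median 0.01). The mean of the 6 members above background in at least 4 samples, each centred on its own mean, was 0.38 in T1R1 replicate 2, -0.24 in T3R1 replicate 3 and -0.26 in T3R1 replicate 4, and between -0.07 and 0.10 in the other 13 hearts.

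The summed levels of blood cell microRNAs stood apart in these hearts, though not every marker did. The summed level of the erythroid markers miR-144, miR-486 and miR-16 was 11.15 log2 in T1R1 replicate 2 and 9.91 and 9.83 in T3R1 replicates 3 and 4. The other hearts ranged from 10.09 to 10.51. Intensities were added before taking logs, so miR-16, the brightest of the 3, weighs most in this sum. Over groups the sum ran from 10.09 to 10.51 in control, 10.13 to 11.15 in T1R1, 10.16 to 10.49 in T2R1 and 9.83 to 10.34 in T3R1. All 4 listed erythroid markers, with miR-451 read in 12 hearts, were lower in T3R1 than in T1R1 and 0 were called. For miR-486, T1R1 replicate 2 (7.20) was not the highest heart, as T1R1 replicate 3 had 7.30. In T3R1 replicate 3, miR-486 (6.96) was above control replicate 2 (6.80). In the same heart miR-451 (12.05), which is not in the sum, was above T1R1 replicate 3 (11.84). T3R1 replicate 4 was the lowest heart read for both, at 6.71 and 11.49. The sum of 6 leukocyte markers was also highest in T1R1 replicate 2 (10.08) and lowest in T3R1 replicates 4 and 3 (9.48 and 9.56), and 1 of the 6 was called lower in T3R1 than in T1R1. Others went the other way, with miR-150 at 6.84 in T1R1 replicate 2, under every control (7.07 to 7.13), and miR-142-3p at 7.46 in T3R1 replicate 3, the highest of the T3R1 hearts. The part of blood content in the member differences was not tested.

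**Figure D4:**
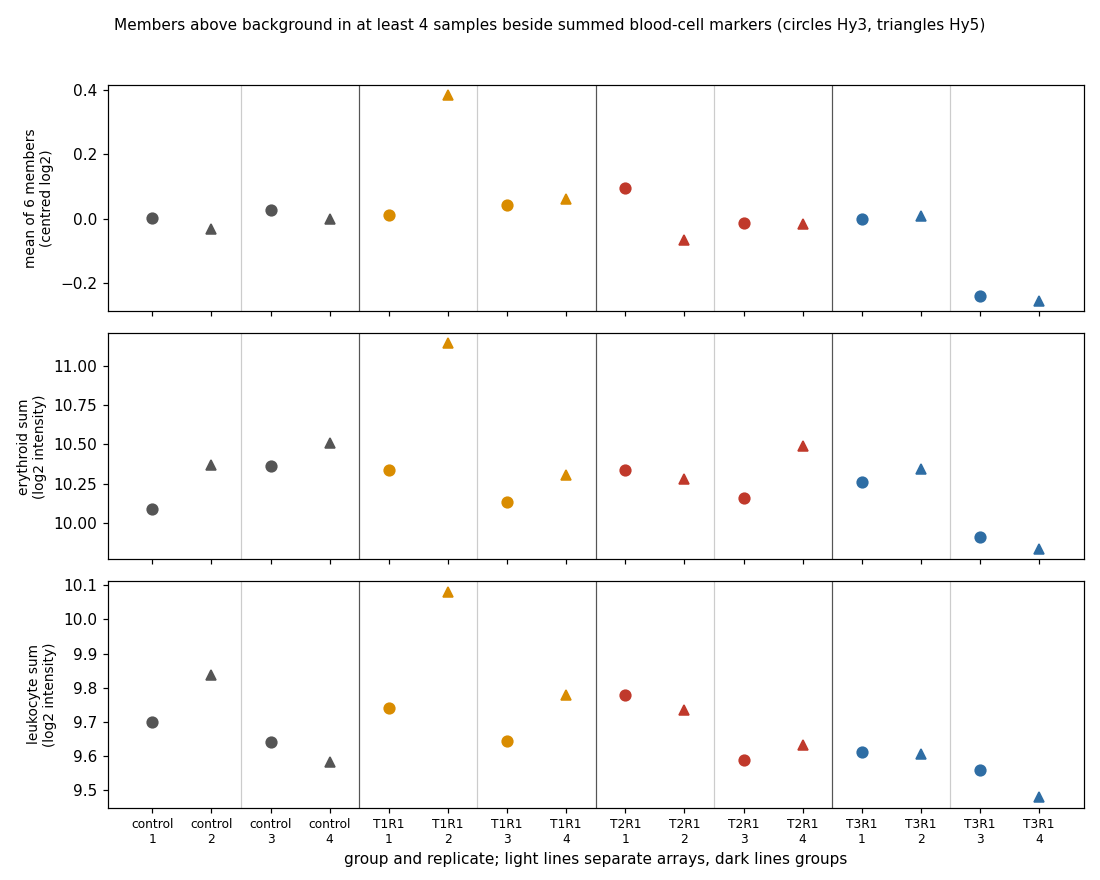
Mean of 6 members (top, centred log2 intensity) and summed log2 levels of erythroid (middle) and leukocyte (bottom) markers in each of the 16 hearts. T1R1 replicate 2 is highest in all 3 panels, and T3R1 replicates 3 and 4 are the 2 lowest.

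The other strands of the 3 clusters and of related families gave little signal. Of 21 such strands, 6 guides and 15 star strands, 17 were above the virus-probe level in 0 samples and none in all 16. None was called in any comparison. The guide of miR-106a, named here after its values were seen because it differs from miR-17 only by U10A, was above background in 15 samples. It stood at 7.20 ± 0.14 (SD, n = 4) in control, 7.25 ± 0.38 in T1R1, 7.16 ± 0.15 in T2R1 and 7.07 ± 0.23 in T3R1, with overlap between all groups. Its difference from control was 0.06 ± 0.12 in T1R1 and -0.04 ± 0.12 in T2R1, where miR-17 had 0.34 ± 0.10 and 0.28 ± 0.10. A difference between the 2 guides was not tested.

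Among the 211 other probes above background in at least 4 samples, those whose profile over the 16 hearts was most like the mean of the 6 members were miR-15b (Pearson r = 0.863), miR-15a (0.825), miR-16 (0.818), miR-144 (0.797) and miR-301a (0.765). These points share arrays, dyes and groups, and T1R1 replicate 2 and T3R1 replicates 3 and 4 stand apart in them. Both miR-16 and miR-144 are on the erythroid list above.

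Apart from the call of miR-17 without T1R1 replicate 1, members were called only where the step that brings arrays to 1 scale was changed. With arrays scaled by their medians, 6 members were called higher in T1R1 and 3 higher in T2R1 than in control, and 4 lower in T3R1 than in T1R1. In the same directions 206 of 1021, 183 of 1022 and 84 of 1022 of all mouse probes were called. With no step between arrays, 3, 4 and 4 members were called lower than control in T1R1, T2R1 and T3R1. So were 602 of 1021, 653 of 1022 and 707 of 1022 of all mouse probes. Under quantile normalization, the signals processed by the extraction software and the deposited values, no member was called.

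**Figure D5:**
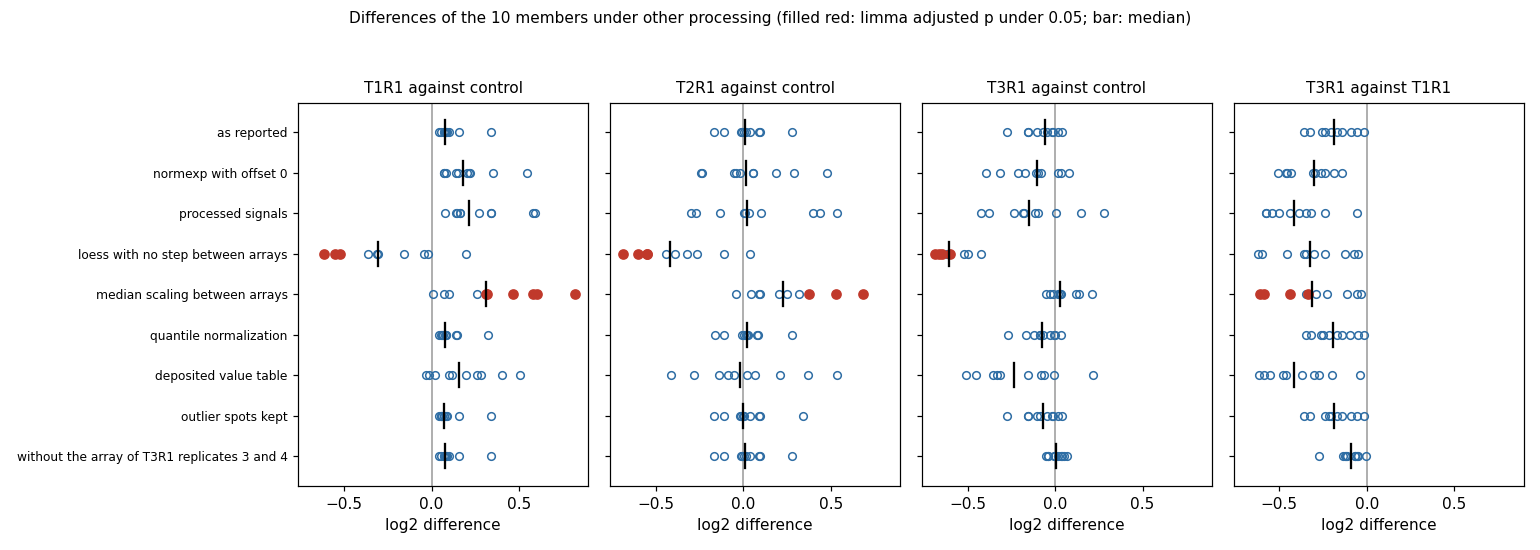
Log2 differences of the 10 members (x axis) in 4 comparisons under 9 ways of processing, with the median as a bar and members at a limma adjusted p under 0.05 filled. Among these ways calls appear with median scaling and with no step between arrays, in opposite directions against control, and T3R1 against T1R1 lies left of 0 throughout.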

How the data were processed

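Spot intensity (mean pixel brightness per dye, with the median local background) was deposited by the authors as scanner output, which the file headers credit to version 9.5.3.1 of Agilent Feature Extraction. The spot marks for outliers and saturation are other columns of the same files, per the file headers. The deposited value table holds log2 values by the authors whose centring is unstated. Its 16 columns all have a median of 3.76, and each followed its own channel with r of 0.944 to 0.996 over 2434 probes, so scale and direction could be matched.

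From the intensities, R 4.3.3 and limma 3.58.1 gave normexp background correction (offset 50), loess within arrays with control spots at weight 0, Aquantile between arrays, and the mean of a probe's spots without outlier spots. Each channel is a sample. One limma fit held all 16 samples, with group means, dye as a fixed term and array as a random block (consensus correlation 0.246). Over the mouse probes above the virus-probe level in at least 4 samples this correlation was 0.632. The SEs, intervals and p-values above use 0.246 and may be too small or narrow for the brighter members. With 0.632 no member was called. In T3R1 against T1R1, 0 probes were then called higher and 3 lower, against 11 and 11 with 0.246. P-values were adjusted by Benjamini-Hochberg over all mouse probes. Called means an adjusted p under 0.05. Over all mouse probes 23 values of 7 probes were missing, none of a member. Nothing but separate extraction of individual hearts describes the replicates. The fit was checked on data simulated with the same array correlation for all probes, as the fit assumes. That check cannot speak to the higher correlation of the brighter probes.

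All 10 members are named. Of the related strands, those called in a comparison or above background in all samples were to be named, and the 5 most similar profiles were taken by Pearson correlation. The members and lists were chosen with earlier results of these data known. Cluster positions and sequences are from RefSeq (GRCm38.p6). The array text names no genome build. Alternatives changed the background step, the step between arrays, the source of values, the filter, outlier spots, the array block, the samples fitted and a replicate block. Replicate numbers were not taken to pair the hearts. Of 24 same-number correlations 8 exceeded 0.1, and with no chance level beside it this count cannot decide whether hearts were paired.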

Additional observations from a re-analysis of the deposited data

Results flagged for a closer look

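In 1 of the 40 sets of 4 hearts, 1 for each member and group, a single heart stood apart from the other 3 by Dixon's test. Control replicate 1 had a log2 intensity of 6.85 for mmu-miR-17, where the other control hearts lay between 6.77 and 6.78. Chance alone marks about 1 in 20 such sets. The T1R1 and T2R1 hearts were all above this heart too, and leaving it out left miR-17 uncalled against control in T1R1 and T2R1.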

How the results depend on the processing

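Each of the 6 counts of called members and each member difference was recomputed under up to 29 alternatives, 1 of them, leaving out the array of T3R1 replicates 3 and 4, chosen after seeing the data. Of 1716 recomputed values 1557 stayed within 1 SD between hearts and on their side of the threshold, 134 moved by over 1 SD, 18 passed the threshold in the same direction and 7 did so in the opposite one. The sign turned in 75 of them, 43 of which stayed within 1 SD, and 33 of the 75 came from leaving out samples. Not all of the 1716 were free to move. Leaving out a heart of neither group compared, or changing only the array block, the replicate block, the probe filter or the groups fitted, leaves a difference unchanged. The 1557 thus include differences fixed by the design and are no measure of stability. With no step between arrays 3, 4 and 4 members were called against control in T1R1, T2R1 and T3R1, where the median of all probes was -0.59, -0.62 and -0.62. Of all mouse probes, 602 of 1021, 653 of 1022 and 707 of 1022 were called lower in these fits. There the direction turned to -0.52 for miR-20b, -0.61 for miR-18a and -0.55 for miR-92a in T1R1, to -0.60 for miR-20b and -0.55 for miR-92a in T2R1, and to -0.60 for miR-92a in T3R1. With median scaling 6 members were called in T1R1 and 3 in T2R1 against control, miR-19b in T2R1 turning to 0.68, and 4 in T3R1 against T1R1. In the same directions 206 of 1021, 183 of 1022 and 84 of 1022 of all mouse probes were called. The cause was not tested. Leaving out 1 heart gave 0 calls in 5 comparisons and 0 to 1 in T3R1 against T1R1, the 1 without T1R1 replicate 1. With the replicate block 0 members were called in each comparison, with lowest adjusted p-values from 0.0929 to 0.996, and 5 of 16 hearts correlated best with their own number. Signal over background limits what can be seen for miR-18a, miR-20b and miR-92a, at or under the virus-probe level in all samples, and for miR-25, above it in 3.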
